A study of Sus scrofa with 6 samples.

Results

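Cadherins and adhesion molecules of the immunoglobulin type hold neighbouring cells together and link the cell surface to the cytoskeleton. Of 10 genes named for this group, 8 were found by symbol among the 22164 genes of the deposited mRNA tables: CDH11, CDH13, CDH2, VCAM1, NCAM1, ALCAM, MCAM and CD44. The other 2, CDH5, the cadherin of endothelial junctions, and ICAM1, a ligand of leukocyte integrins, were not found by name and are not analysed here. Each symbol occurred once, so no row had to be chosen among several.

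Classical cadherins bind the same or a related cadherin on the next cell in the presence of calcium, and their cytoplasmic tails bind catenins, which connect them to actin. Molecules of the immunoglobulin type either bind to themselves, without calcium, or bind to partners such as integrins. CD44 belongs to neither family. It is a receptor for hyaluronan, a long sugar chain of the matrix, and is described here because it serves the same cell surface. Preadipocytes are fibroblast-like precursors of fat cells, and mesenchymal cells of this kind are known for CDH11 and CDH2 rather than for CDH1, the cadherin of epithelia.

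The cells were preadipocytes from subcutaneous adipose tissue of 5-day-old pigs, labelled Junmu No. 1 white pigs to Junmu No. 6 white pigs with a different number for each sample. In the TGF-β1 group, 3 samples received the human recombinant cytokine at 10 ng/mL, and in the NC group (negative control) 3 samples received citric acid at 10 mM. RNA was taken after 48 h. The paper describes the samples of a group as biological replicates. Whether they came from separate animals or cultures is not stated in the sources used here, and if they did not, p-values measure only technical spread.

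Levels are FPKM, fragment counts scaled for transcript length and for the depth of the library. The files hold no read counts. Low values step by whole fragments, and the most frequent step gave the other samples a depth of 0.740 to 0.881 relative to NC replicate 1. It was 1 (the reference), 0.881 and 0.778 for NC and 0.740, 0.798 and 0.842 for TGF-β1, and so did not place the TGF-β1 libraries deeper. That estimate rests on 9 to 13 genes a sample and is approximate. The paper, however, reports more raw reads for the treated group than for the control group. The reason for this difference was not tested, so the estimate cannot tell which group was sequenced deeper. The summed FPKM of a library ranged from 418531 to 448468 for NC and from 392976 to 404489 for TGF-β1. Of 15 preadipocyte and mesenchymal markers 14 were found, among them VIM at 3609 to 5594 and PDGFRA at 67.3 to 189 over the samples. Both are general mesenchymal genes, and the levels of PPARG, CEBPA and DPP4 of the same list are not reported here.

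None of the 8 genes passed the test between the groups. The test was limma on log2(FPKM + 0.1) over the 17708 genes with an FPKM above 0.1 in at least 3 samples, with Benjamini-Hochberg adjustment over all of them and a threshold of 0.1. It called 17 genes in all (0.096% of those tested), with 0.0508% higher and 0.0452% lower under TGF-β1. Of the 8 genes 5 had a log2 fold change below 0, as had 66.9% of all genes. NCAM1 had higher values in all 3 TGF-β1 samples than in any NC sample, and CDH13 had lower values in all 3. The groups of the other 6 genes overlapped. Groups without overlap occurred with higher TGF-β1 values in 3.83% and with lower TGF-β1 values in 14.3% of all genes tested, and 1 gene of 8 lower is close to that background. At an unadjusted p of 0.05, limma also gave 1 of the 8 genes as higher (NCAM1) and 1 as lower (CDH13), where 2.72% and 7.26% of all genes tested were so (9.98% together). The unadjusted calls of all genes leaned to lower values, with 27.3% of them higher, but 65.9% were higher once each sample was scaled to the same summed FPKM. That scaling moved the median log2 fold change of all genes by 0.12, from -0.10 to 0.02.

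**Figure D1:**
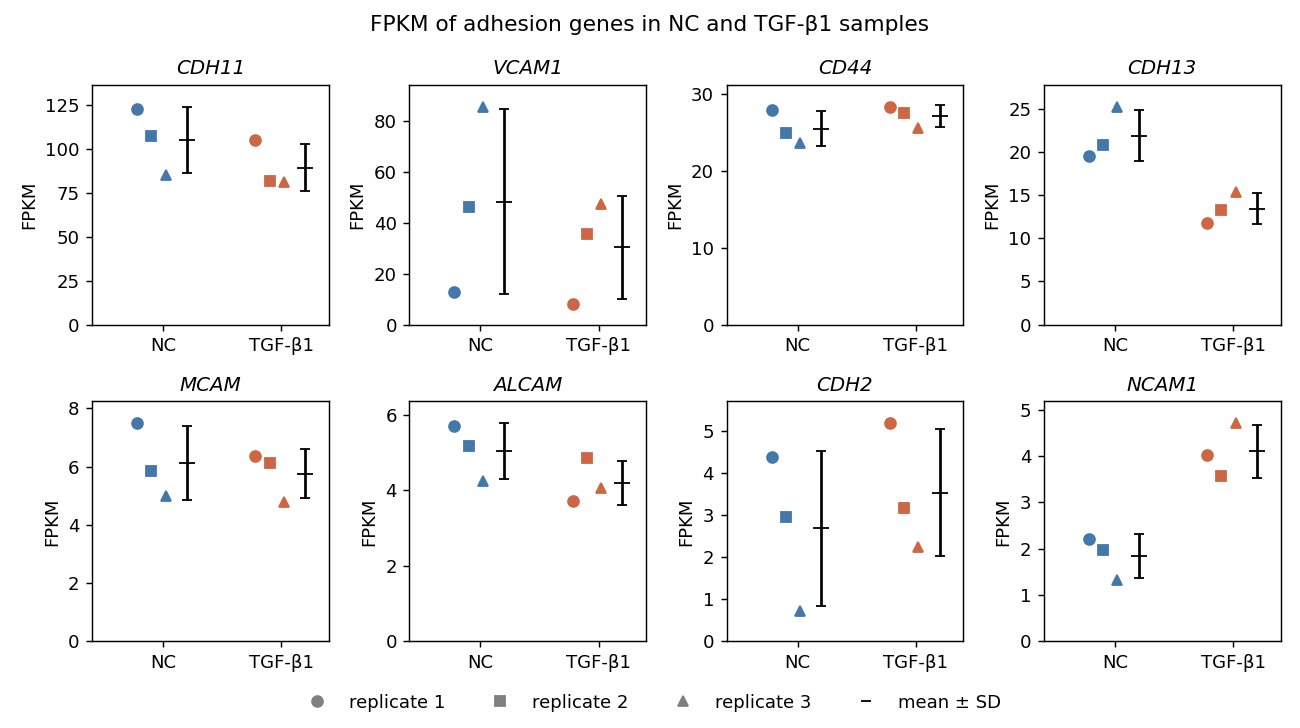
FPKM of the 8 genes in each sample (vertical axes, linear and starting at 0), with NC in blue, TGF-β1 in orange, 1 symbol per replicate number and the mean ± SD (n = 3) in black. The groups do not overlap for CDH13 and NCAM1, whereas VCAM1 spans 8.17 to 85.4 over the 6 samples.

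CDH11 (gene11860), also called OB-cadherin, is a classical cadherin of fibroblasts and bone-forming cells. It was the highest of the 8 genes in all 6 samples, with an FPKM of 123, 108 and 85.4 in NC and of 105, 81.9 and 81.3 with TGF-β1. NC replicates 1 and 2 lay above every TGF-β1 sample, NC replicate 3 lay among them, and so the groups overlapped. The mean was 105 ± 18.8 in NC (SD, n = 3, as for every mean ± value that follows) and 89.4 ± 13.5 under TGF-β1. On the log2 scale the difference was -0.23 (95% interval -0.69 to 0.23, adjusted p = 0.693 from limma). Relative to the median of all genes the difference was -0.13. Among the 14 CDH genes that were found, CDH11 alone held 75.7% to 85.3% of the summed FPKM of a sample, the lowest share being that of NC replicate 3. Its mean exceeded that of 97.0% of the genes tested.

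CDH13 (gene11642), T-cadherin, lacks the cytoplasmic tail of its relatives, is held in the membrane by a lipid anchor, and is a receptor for adiponectin, a hormone of fat cells. Its FPKM was 19.6, 20.8 and 25.2 in NC and 11.8, 13.2 and 15.3 with TGF-β1. Every TGF-β1 sample lay below every NC sample, the closest being NC replicate 1 and TGF-β1 replicate 3. The NC mean of 21.9 ± 2.97 was 1.63 times the TGF-β1 mean of 13.4 ± 1.78. The log2 fold change was -0.70 (standard error 0.15, 95% interval -1.08 to -0.31), or -0.60 relative to the median of all genes. The difference did not pass over all genes (adjusted p = 0.348 from limma). Of the sum of squares of its 6 log2 values, 83.5% lay between the groups.

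CDH2 (gene13621), N-cadherin, is the classical cadherin of nerve, muscle and many mesenchymal cells. It was low beside CDH11, at 4.37, 2.95 and 0.714 in NC and at 5.17, 3.17 and 2.24 with TGF-β1. The groups overlapped and NC replicate 3 stood below all other samples. The ratio of CDH11 to CDH2 was 20.3 to 36.5 in 5 of the samples and 120 in NC replicate 3. The log2 fold change was 0.62 (95% interval -1.15 to 2.39, adjusted p = 0.778 from limma), and without NC replicate 3 it was -0.11, so its direction rests on that sample. On the log2 scale its spread within groups was larger than that of 95.4% of the genes whose mean FPKM reached 1.

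NCAM1 (gene18549) is a molecule of the immunoglobulin type that binds to itself on the next cell and is best known from neurons, muscle and natural killer cells. Its FPKM was 2.22, 1.98 and 1.31 in NC and 4.01, 3.57 and 4.70 with TGF-β1. Each TGF-β1 sample lay above each NC sample, and the lowest of them, replicate 2, was still above the highest NC sample. The mean was 4.10 ± 0.570 with TGF-β1 and 1.84 ± 0.468 in NC, a ratio of 2.23. Its log2 fold change of 1.14 (standard error 0.22, 95% interval 0.58 to 1.70) was the largest in size of the 8 genes and larger than that of 97.4% of the genes at a mean FPKM of 1 or more. It did not pass over all genes (adjusted p = 0.339 from limma). The study lists NCAM1 as differentially expressed in the same samples, and the reason for the different outcome was not tested. Between the groups lay 84.5% of its sum of squares, the highest share of the 8 genes, followed by CDH13 and then ALCAM at 37.6%.

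The summed FPKM of the epithelial markers also separated the groups, on the same side as NCAM1 and opposite to CDH13. Of 15 such markers 13 were found, and their sum was 0.405 to 1.60 in NC and 4.61 to 6.45 with TGF-β1. Of the 7 tested, KRT5, KRT14, KRT8 and EPCAM had groups without overlap, all higher with TGF-β1, and the other 3 overlapped. Over all genes tested, 3.83% were higher without overlap. The keratins KRT5 and KRT14 had means of 2.08 and 1.74 with TGF-β1, and KRT5 was listed at 0 throughout NC. KRT5 passed the test, as did KRT8 (adjusted p = 0.00029 and 0.073 from limma). As KRT5 was at 0 in NC, it met the filter only through the TGF-β1 samples in which it was high. Its p-value, its place among the genes without overlap and its part in the sum are therefore no independent support. ESRP1, a splicing factor of epithelia, was at 0.0715 to 1.23 in NC and 0.180 to 1.11 with TGF-β1, and CLDN7, a claudin of tight junctions, had means of 0.270 ± 0.192 and 0.168 ± 0.0405. CDH1, the defining cadherin of epithelia, was at 0 throughout NC and at 0.0554, 0 and 0.118 with TGF-β1. The part of these cells in the values of NCAM1 and CDH13 was not tested. In bulk RNA, a change in the number of cells of a type and a change in RNA per cell cannot be told apart.

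Markers of muscle cells, which are known for NCAM1, gave mixed values, and those not found by name say nothing of these cells. Of 9 myoblast markers, PAX7, MYF5, MYOD1, MYOG, CDH15 and MYH3 were not found by name, CKM and ACTC1 did not exceed 0.0760, and DES, which smooth muscle cells also express, was at 269 to 425 in NC and at 432 to 583 with TGF-β1. DES, the only myoblast marker tested, had groups without overlap on the same side as NCAM1, as had 3.83% of all genes tested. Its log2 fold change was 0.51 and it did not pass. The part of muscle cells in the values of NCAM1 was not tested. Of 9 Schwann and neural markers 6 were found, among them NES, also made by other growing cells, at 9.88 to 26.3.

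**Figure D2:**
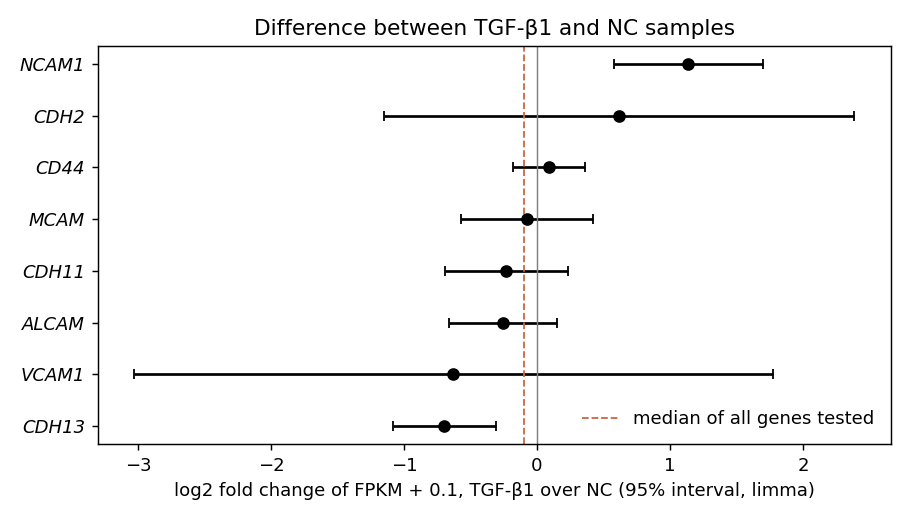
Log2 fold change of FPKM + 0.1, TGF-β1 over NC, on the horizontal axis, with the 95% interval from limma (bars) for each of the 8 genes, and the median of all tested genes as a dashed line at -0.10. The intervals of NCAM1 (0.58 to 1.70) and CDH13 (-1.08 to -0.31) do not include 0, and neither gene passed after adjustment over all genes.

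VCAM1 (gene9713) binds integrin α4β1 on leukocytes and is induced in stromal and endothelial cells by inflammatory signals through NF-kB. Its FPKM was 13.0, 46.0 and 85.4 in NC and 8.17, 35.6 and 47.3 with TGF-β1. The groups overlapped, and in each of them replicate 1 was lowest and replicate 3 highest. Each TGF-β1 sample lay below the NC sample of the same number. Over the 6 samples the values spanned 8.17 to 85.4, and 7.37% of the sum of squares lay between the groups. In NC replicate 3, VCAM1 and CDH11 were at the same level of 85.4, while in the replicate 1 samples CDH11 was 9.45 and 12.9 times as high. The log2 fold change of VCAM1 was -0.63 with a 95% interval of -3.03 to 1.77 (adjusted p = 0.839 from limma), and without TGF-β1 replicate 1 it was 0.14. The interval spans changes of several fold in both directions. Its spread within groups exceeded that of 97.1% of the genes at a mean FPKM of 1 or more.

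Macrophage and leukocyte markers moved with VCAM1 from sample to sample. Of 15 markers 12 were found (CD68, CD3E and MS4A1 were not found by name), and their summed FPKM was 85.1, 252 and 333 in NC and 46.4, 122 and 176 with TGF-β1. It was again lowest in replicate 1 and highest in replicate 3 of each group. The highest were the protease CTSS at 14.8 to 94.0, the mannose receptor MRC1 at 7.78 to 53.6 and the signalling adaptor TYROBP at 5.02 to 36.4. CD14, a receptor of macrophages, had 10.6, 20.9 and 28.1 in NC and 7.01, 13.9 and 20.5 with TGF-β1, and PTPRC, which marks all leukocytes, had 0.882 to 8.78 over the 6 samples. Between the log2 values of VCAM1 and of the summed markers Pearson's r was 0.96 over the 6 samples, which share their library between both measures. Sums of other lists came close to this. The r of VCAM1 was 0.95 with the proteases that cut adhesion molecules, 0.92 with endothelial markers and 0.90 with NF-kB factors. With pericyte and smooth muscle markers it was -0.90. The link is thus not particular to macrophages and leukocytes. All 11 tested macrophage and leukocyte markers had log2 fold changes below 0 (median -0.73), as had 66.9% of all genes tested (median -0.10). None of the 11 passed, and as they come from the same 6 libraries they are not independent. The groups of their summed FPKM overlapped (means 223 ± 126 and 115 ± 65.2, p = 0.3 by a two-sided exact permutation test, which cannot go below 0.1 here). The part of these cells in the values of VCAM1 was not tested.

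CDH2 ran the other way over the same samples. Its r with the summed macrophage and leukocyte markers was -0.84, and with the summed pericyte and smooth muscle markers it was 0.97, again over 6 samples and as a description only. Sums of other lists were as close to CDH2. Its r was -0.98 with the NF-kB factors, -0.97 with the proteases that cut adhesion molecules and 0.89 with the Schwann and neural markers. A high r is thus not particular to 1 cell type. All 11 pericyte and smooth muscle markers were found, with ACTA2 highest at 3025 to 5461, followed by TAGLN at 2669 to 4039 and DES. Of the genes that mark pericytes, PDGFRB was at 82.5 to 91.4, CSPG4 at 7.60 to 14.7 and NOTCH3 at 2.12 to 5.09, while RGS5 was at 0 to 0.554. Their summed FPKM was 10128, 8248 and 6108 in NC and 9662, 8240 and 7941 with TGF-β1, lowest in NC replicate 3, as was CDH2. Whether these cell types have a part in the spread of CDH2 was not tested. For NCAM1, r with the macrophage and leukocyte markers was -0.59. The marker sums of NC replicates 2 and 3 lay above those of all TGF-β1 samples, so the groups cannot be compared at high marker levels. The part of these cells in the values of NCAM1 was not tested.

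**Figure D3:**
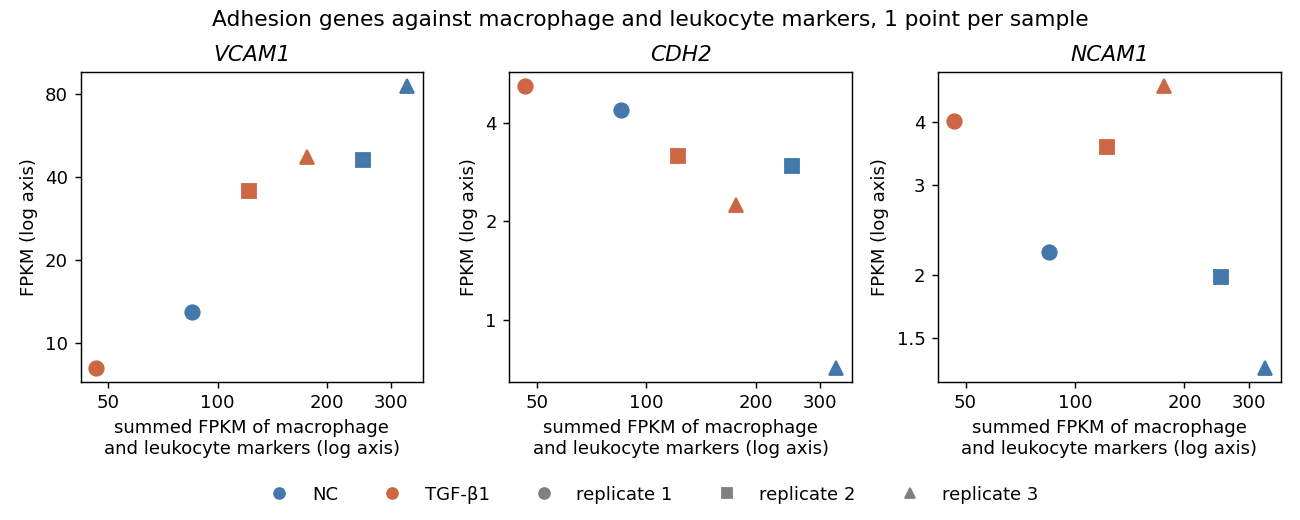
FPKM of VCAM1, CDH2 and NCAM1 (vertical, log axes) against the summed FPKM of 12 macrophage and leukocyte markers (horizontal, log axes), with 1 point per sample, NC in blue, TGF-β1 in orange and 1 symbol per replicate number. VCAM1 is high where the markers are high (r = 0.96), CDH2 is low there (r = -0.84), and NCAM1 separates by group.

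ALCAM (gene24438), or CD166, binds to itself and to CD6 of T cells. It had an FPKM of 5.69, 5.18 and 4.25 in NC and of 3.705, 4.84 and 4.05 with TGF-β1. NC replicate 3 lay within the TGF-β1 values and the groups overlapped. The log2 fold change was -0.26 (95% interval -0.66 to 0.15, adjusted p = 0.632 from limma), or -0.16 relative to the median of all genes.

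MCAM (gene18654), or CD146, marks endothelial cells, pericytes and part of the stromal cells of many tissues. Its FPKM was 7.49, 5.86 and 4.98 in NC and 6.37, 6.13 and 4.79 with TGF-β1, with nearly full overlap. The log2 fold change of -0.07 (95% interval -0.57 to 0.42, adjusted p = 0.907 from limma) was 0.02 and 0.05 after median-ratio scaling and after scaling to the same summed FPKM, so no direction can be given. Of 18 endothelial markers 16 were found. Their summed FPKM was 32.2 to 55.1 in NC and 30.6 to 40.9 with TGF-β1, and the highest were EGFL7 at 7.62 to 18.6, PECAM1 at 4.22 to 12.9 and ERG at 3.64 to 6.82. CLDN5 was at 2.90 to 4.54 and CD34 at 1.25 to 3.27, while VWF and TEK did not exceed 0.0611 and 0.281. The r of MCAM with the summed endothelial markers was -0.73 over the 6 samples. It was 0.82 with the pericyte and smooth muscle markers, 0.86 with the preadipocyte and mesenchymal markers and 0.95 with the Schwann and neural markers. The part of any of these cells in the values of MCAM was not tested.

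CD44 (gene3906) was the steadiest of the 8 genes. Its FPKM was 28.0, 24.9 and 23.6 in NC and 28.3, 27.5 and 25.5 with TGF-β1, and over all 6 samples the highest value was 1.20 times the lowest. The groups overlapped, with a log2 fold change of 0.09 (95% interval -0.18 to 0.36, adjusted p = 0.785 from limma). Where VCAM1 was high CD44 was slightly lower (r = -0.90 over 6 samples).

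Ordered by mean FPKM over the 6 samples, the genes were CDH11 at 97.3, VCAM1 at 39.2, CD44 at 26.3, CDH13 at 17.6, MCAM at 5.94, ALCAM at 4.62, CDH2 at 3.10 and NCAM1 at 2.97. Only some neighbours in this order kept it in every sample. CDH11 stood above VCAM1, CDH13 above MCAM, and MCAM above ALCAM in 6 of 6 samples, although the first of these was a ratio of 1.00 in NC replicate 3. CD44 exceeded CDH13 in 5, ALCAM exceeded CDH2 in 5, VCAM1 exceeded CD44 in 4 and CDH2 exceeded NCAM1 in 3 samples. The ratio of CD44 to CDH13 was 0.938 to 1.43 in NC and 1.67 to 2.41 with TGF-β1, without overlap. As CD44 was nearly steady, this mostly restates the separation of CDH13 and is no second result.

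The genes whose log2 values were most like those of NCAM1 over the 6 samples, among 8889 named genes whose mean FPKM reached 1, were COL8A1 (r = 0.996), DKK3 (r = 0.994) and GSR (r = 0.985). COL8A1, a collagen chain, had 4.05, 3.78 and 2.72 in NC and 6.61, 6.34 and 7.06 with TGF-β1. For CDH13 they were PMVK, NUDT2 and TGFBRAP1 (r = 0.990 to 0.991). The same list for VCAM1 and CDH2 was drawn up after their values had been seen. It gave NEO1 and SLC7A7 among others for VCAM1 (r = 0.998 and 0.997), and TPM1, CKAP2L and EIF3I for CDH2 (r = 0.990 to 0.997), of which TPM1 is a tropomyosin of actin filaments. The closest genes of each of the 8 had r of at least 0.978, so a high r is common among so many candidates.

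Of the 16 catenins and adaptors of the cadherin tail all were found, 12 were tested and none passed. β-Catenin (CTNNB1) had 192 ± 13.4 in NC and 196 ± 7.09 with TGF-β1, and α-catenin (CTNNA1) 133 ± 2.51 and 122 ± 8.79, levels above that of any cadherin measured. The groups did not overlap for AFDN, which links nectins to actin, with means of 17.2 ± 1.05 in NC and 12.7 ± 0.596 under TGF-β1, for CTNNAL1 and ARVCF, also lower, and for PKP4, higher with TGF-β1. None of these differences passed (adjusted p = 0.348 to 0.524 from limma). Of the 12 tested, 3 were lower and 1 higher without overlap, where 14.3% and 3.83% of all genes tested were so. The median log2 fold change of the 12 was -0.10, the same as that of all genes.

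Among 41 other cadherins, 33 were found, 17 were tested and none passed. FAT1, a giant cadherin of many tissues, was highest at 48.8 ± 0.856 in NC and 52.4 ± 1.33 under TGF-β1, with a log2 fold change of 0.10 (adjusted p = 0.693 from limma). Next came CLSTN1 and PCDH7 with means of 16.1 and 13.5. Of the 17 tested, FAT1 and PCDH1 had groups without overlap, both higher with TGF-β1, where 3.83% of all genes tested were so. Of 43 other adhesion molecules of the immunoglobulin type, 36 were found, 27 were tested and none passed. THY1, an anchor protein of fibroblasts, was highest at 190 ± 15.8 and 164 ± 13.5, followed by BSG at 135 ± 7.41 and 141 ± 6.41. L1CAM and CHL1, which are relatives of each other, had groups without overlap, L1CAM at 0.345 ± 0.0443 in NC against 0.505 ± 0.0643 under TGF-β1, and CHL1 at 0.968 ± 0.209 against 0.584 ± 0.0748. Neither passed (adjusted p = 0.428 and 0.411 from limma). Of the 27 tested, 1 was thus higher and 1 lower without overlap, where 3.83% and 14.3% of all genes tested were so.

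Partners of the single molecules did not pass either, among them the 6 tested for NCAM1 (median log2 fold change -0.12). ITGA4, the α4 chain that VCAM1 binds, was at 2.96 ± 0.727 in NC and 1.96 ± 0.418 with TGF-β1, while ITGB1, the β1 chain, was at 444 ± 46.0 and 478 ± 4.74. None of the 6 tested integrin chains passed, and none of the 16 NF-kB factors and receptors, whose median log2 fold change was -0.05. ST8SIA4, which adds polysialic acid to NCAM1, had 1.19, 1.32 and 1.39 in NC and 0.953, 0.718 and 1.03 with TGF-β1. Its groups did not overlap, on the opposite side to NCAM1, with a log2 fold change of -0.50 (adjusted p = 0.437 from limma). Lower values without overlap occurred in 14.3% of all genes tested. Among the 20 tested genes of hyaluronan and of CD44 none passed. MSN, which ties the CD44 tail to actin, was at 207 ± 26.3 and 211 ± 16.6, and SPP1, a secreted ligand of CD44, at 214 ± 98.2 and 128 ± 71.1.

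Of 13 tested proteases that can cut adhesion molecules from the surface none passed. ADAM10, which cleaves CDH2 and CD44, was at 46.6 ± 0.724 in NC and 44.5 ± 0.782 with TGF-β1. None of 8 tested transcription factors that repress epithelial cadherin genes passed. TWIST2 was highest, at 71.5, 73.8 and 72.1 in NC and 60.0, 58.1 and 58.0 with TGF-β1, and its log2 fold change was -0.30 (adjusted p = 0.401 from limma). Its groups did not overlap, as for 14.3% of all genes tested in this direction. SNAI2 was at 0 to 0.0548. Over all 16 lists of related and marker genes, 2 of 173 tested genes passed, KRT5 and KRT8, both of the epithelial markers and both higher with TGF-β1. KRT5 met the filter only through the TGF-β1 samples.

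**Figure D4:**
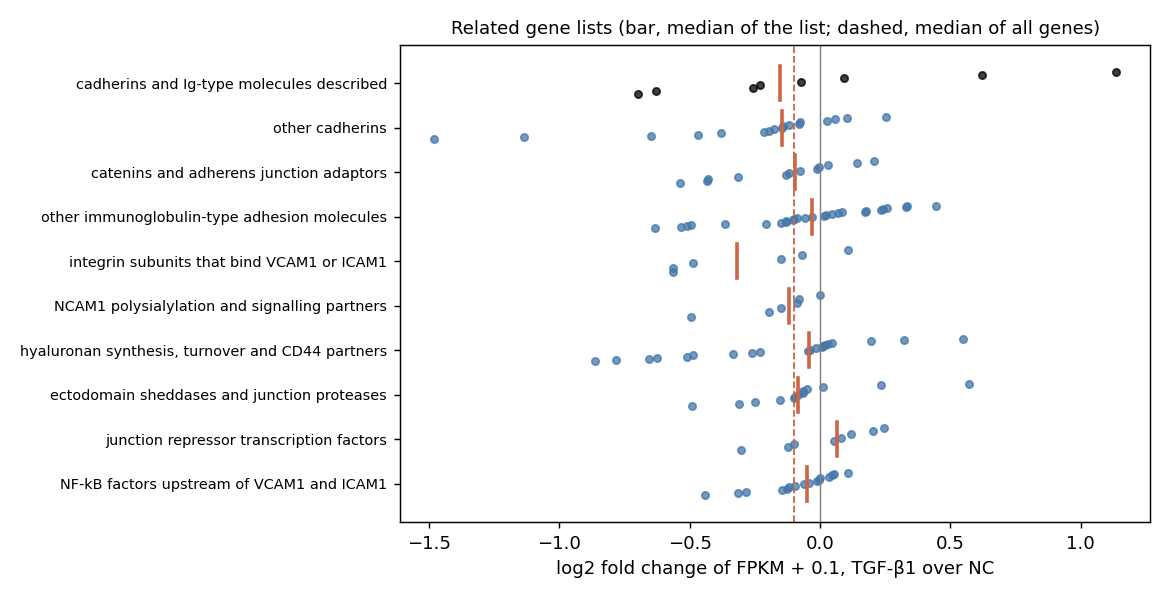
Log2 fold change of FPKM + 0.1, TGF-β1 over NC (horizontal axis), of each tested gene in 9 lists of related genes, the cell type marker lists being left out, with the 8 genes of the top row in black, an orange bar at the median of each list and a dashed line at the median of all genes (-0.10). NCAM1 at 1.14 is the point farthest to the right, and no gene in the plot passed over all genes.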

How the data were processed

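RNA of 3 NC and 3 TGF-β1 samples was sequenced after removal of ribosomal RNA. Alignment was to Sus scrofa 10.2, and the deposited FPKM per gene came from StringTie 1.3.1, run by the authors. The aligner and the use of strand are not given in the sources used here, so overlapping genes may share fragments. The lncRNA tables were not used.

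From these values, log2(FPKM + 0.1) was tested with limma 3.58.1 in R 4.3.3 on all genes with an FPKM above 0.1 in at least 3 samples, with Benjamini-Hochberg adjustment and a threshold of 0.1. The study's methods name limma, this adjustment and this threshold. Its added condition of a fold change above 1 was not applied, and the pseudocount and the filter were chosen here. The code was tested on simulated data. Python 3.11.15, pandas 2.3.3 and matplotlib 3.10.9 were used for tables and figures. Of 263 symbols in 16 lists, 225 were found, 12 of them by LOC number with the help of RefSeq gene names (Sscrofa11.1) and 5 under older symbols. By rule, the text drew on the named adhesion genes, the 3 highest genes of a list, those that passed, defining markers at 0 and those most alike. Others, such as genes without overlap between the groups and further cell type markers, were picked after their values were seen. Most list genes, and some of those the rule names, are not reported here. The genes and lists were chosen with earlier results of these data known, among them the study's table of differentially expressed genes, which holds NCAM1.

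Alternatives were the pseudocount, the filter, 3 scalings, a trended and robust fit, a threshold of 0.05, the replicate number as a block and leaving out each sample. Fold changes on the log2(FPKM + 0.1) scale understate the change of low genes.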

Additional observations from a re-analysis of the deposited data

How the results depend on the processing

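None of the 8 adhesion genes passed under any of the 16 other fits or at an adjusted p of 0.05 (lowest adjusted p 0.187, for NCAM1 in the trended and robust fit). NCAM1 kept a log2 fold change of 0.85 to 1.28 and CDH13 one of -0.79 to -0.57, each with an unadjusted p under 0.05 in all 16. VCAM1 reached this in 2 of the 16, those with the replicate block. Of 128 refitted log2 fold changes 8 changed sign. These were VCAM1 without TGF-β1 replicate 1 (0.142), CDH2 without NC replicate 3 (-0.106), and MCAM with quantile normalization (0.0158), median-ratio scaling (0.0245, also with the replicate block), scaling to the same total (0.0531), without NC replicate 1 (0.0805) and with TGF-β1 replicate 3 left out (0.0514). Without single samples, CDH2 ranged from -0.11 to 1.12, VCAM1 from -1.38 to 0.14 and MCAM from -0.21 to 0.08. The cause was not tested.

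The number of genes called in the whole table, 17, was 9 at an adjusted p of 0.05, 49 with a pseudocount of 0.01, 11 without a filter, 5 with a mean FPKM of at least 1, 31 with quantile normalization, 27 with median-ratio scaling, 46 with the trended and robust fit, and 15 to 41 without single samples. Of the 2 genes of the related and marker lists called, 1 was called at an adjusted p of 0.05, with a pseudocount of 1, without a filter, with a mean FPKM of at least 1, with the trended and robust fit and with the replicate block, and 1 to 2 without single samples. The highest of the table's counts without single samples, 41, 36 and 30, came without TGF-β1 replicates 1, 2 and 3.

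The replicate numbers share no stated origin. The deviations of same-numbered samples had r = 0.25, 0.0039 and 0.20 over the tested genes, and not every sample correlated best with its own number. The numbers were not taken as pairs in the main fit, although replicates 1 and 3 shared part of their deviations across the groups. From replicate 1 to 3, CDH11, CD44, MCAM and CDH2 fell and VCAM1 and CDH13 rose in both groups. ALCAM and NCAM1 had no such common order. With the replicate block 3 genes of the table and none of the 8 passed, and 3 also with median-ratio scaling added, a combination chosen after seeing the data. For VCAM1 the block gave -0.63 with a standard error of 0.13 (unadjusted p = 0.0141, adjusted p = 0.332 from limma). With median-ratio scaling added it gave -0.53 (unadjusted p = 0.0276 from limma). Without the block the unadjusted p of VCAM1 was 0.538 from limma. No symbol of the 8 repeated, so summing rows gave no other value. Depth in reads of each sample is not known from these files, which limits what can be said of low genes such as CDH1.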
